A study of Mus musculus with 9 samples.

Results

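The mitosis and kinetochore genes followed here are 52 genes of the G2/M phase, the spindle, the kinetochore and cytokinesis, taken by symbol and compared between NA MPs and WT MPs. All 52 were among the 37980 genes of the deposited table, and all 52 were among the 11987 genes with enough signal to be tested. NA MPs are myeloid progenitor cells that carry the NUP98-HOXA10hd fusion gene (NA), expressed from the Rosa26 locus in NA LSL/+; Vav-Cre donors, in which Vav-Cre switches the transgene on throughout the blood system. Irradiated adult recipients received sorted multipotent progenitor cells (MPPs) from NA or WT mice together with helper bone marrow cells. At 3 months after transplantation by the deposited labels, and at a later month by the study's methods, samples of 100000 Lin-ckit+Sca1- cells of strain C57BL/6 were sorted from recipient bone marrow and their polyA RNA was sequenced. There were 4 NA MP samples (Tdtomato+, donor-derived) and 5 WT MP samples (CD45.2+, recipients of WT MPPs). The sorting marker differed with the genotype, and elsewhere the study describes recipients as CD45.2+ and WT donors as CD45.1+, so donor, helper and recipient cells cannot be told apart among WT MPs. The number of mice behind each sample is not given, so p-values measure the spread between these samples.

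A cell that divides must condense its chromosomes, attach each sister chromatid to spindle microtubules, part the sisters and split its body. Entry is driven by the kinase Cdk1 with cyclins A and B and by the Polo and Aurora kinases. The kinetochore is the protein assembly on the centromere that grips the microtubules, and the spindle checkpoint holds the anaphase-promoting complex in check until every kinetochore is attached. The genes are transcribed together late in the cell cycle. Many of their promoters carry a CHR (cell cycle genes homology region) element, which is bound by the MuvB core together with the repressive DREAM proteins or with B-Myb (Mybl2) and Foxm1, and CCAAT boxes bound by NF-Y. Myeloid progenitors in bone marrow are a rapidly cycling population.

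The promoters of the members were read from RefSeq (GRCm38.p6), in windows of 300 bases that run from 250 before to 50 after the start of the gene, and 45 of the 52 genes had at least 1 window. Tpx2, Smc4, Kif20a, Spc24, Incenp, Aurkb and Ccna2 had none. For each role, the sequence of the member with the largest fall among those with a window is printed below from 200 bases before to 30 bases after the start, on the strand of the gene, to show how the motifs of this gene class lie. Capitals mark the CHR letters TTTGAA and the letters CCAAT, each on either strand (TTCAAA and ATTGG on the other). The regions are Ccnb1 chr13:100786457-100786686 (minus strand), Ttk chr9:83834489-83834718 (plus strand), Espl1 chr15:102296093-102296322 (plus strand), Birc5 chr11:117849037-117849266 (plus strand), Knl1 chr2:119046919-119047148 (plus strand), Kif18a chr2:109280538-109280767 (plus strand), Kif20b chr19:34922158-34922387 (plus strand) and Mki67 chr7:135716350-135716579 (minus strand).
Ccnb1: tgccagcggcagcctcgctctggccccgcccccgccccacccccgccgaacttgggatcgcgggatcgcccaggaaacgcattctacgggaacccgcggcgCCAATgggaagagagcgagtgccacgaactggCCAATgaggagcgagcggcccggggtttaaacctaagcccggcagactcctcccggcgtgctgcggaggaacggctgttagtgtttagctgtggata
Ttk: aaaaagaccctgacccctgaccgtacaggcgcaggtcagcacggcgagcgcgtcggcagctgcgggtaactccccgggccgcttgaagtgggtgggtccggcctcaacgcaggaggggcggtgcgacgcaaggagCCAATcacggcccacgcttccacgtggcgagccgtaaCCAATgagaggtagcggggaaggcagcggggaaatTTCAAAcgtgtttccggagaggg
Espl1: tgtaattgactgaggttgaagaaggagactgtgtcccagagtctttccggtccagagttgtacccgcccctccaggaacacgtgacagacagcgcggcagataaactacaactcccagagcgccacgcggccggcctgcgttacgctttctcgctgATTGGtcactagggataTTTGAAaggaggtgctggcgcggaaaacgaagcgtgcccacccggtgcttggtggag
Birc5: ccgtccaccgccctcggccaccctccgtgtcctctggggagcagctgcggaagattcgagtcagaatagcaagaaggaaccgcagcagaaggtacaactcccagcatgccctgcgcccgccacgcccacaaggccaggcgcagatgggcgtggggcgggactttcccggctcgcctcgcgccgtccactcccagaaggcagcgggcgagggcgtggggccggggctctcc
Knl1: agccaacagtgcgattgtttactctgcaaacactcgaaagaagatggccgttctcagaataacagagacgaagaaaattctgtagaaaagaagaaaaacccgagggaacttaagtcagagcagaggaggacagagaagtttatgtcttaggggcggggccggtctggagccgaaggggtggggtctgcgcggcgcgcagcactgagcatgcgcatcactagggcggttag
Kif18a: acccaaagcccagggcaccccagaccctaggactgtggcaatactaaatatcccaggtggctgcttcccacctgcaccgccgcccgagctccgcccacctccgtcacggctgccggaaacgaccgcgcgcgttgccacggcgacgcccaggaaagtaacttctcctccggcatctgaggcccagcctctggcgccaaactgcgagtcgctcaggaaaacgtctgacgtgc
Kif20b: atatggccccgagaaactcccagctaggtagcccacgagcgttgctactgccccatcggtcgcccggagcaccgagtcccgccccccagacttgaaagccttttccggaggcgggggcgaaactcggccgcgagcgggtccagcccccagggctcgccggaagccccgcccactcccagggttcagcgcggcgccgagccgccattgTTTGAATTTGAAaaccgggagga
Mki67: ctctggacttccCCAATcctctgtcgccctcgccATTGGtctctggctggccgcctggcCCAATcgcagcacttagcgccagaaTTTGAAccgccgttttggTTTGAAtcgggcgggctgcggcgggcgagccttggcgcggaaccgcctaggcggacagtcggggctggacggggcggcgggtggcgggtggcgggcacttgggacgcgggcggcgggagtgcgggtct

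Ttk and Espl1 each held a CHR match next to the start with at least 1 CCAAT box upstream of it. Mki67 held a pair of CHR matches behind 3 CCAAT boxes, and Kif20b a pair of CHR matches side by side just after its start, with no CCAAT box. Ccnb1 had CCAAT matches only, and Birc5 and Kif18a had neither set of letters in their windows. Knl1 had 1 CHR match that begins at base 32 after its start and so lies outside the printed stretch. Only these exact letters were searched, so an element with other letters would be counted as no match. Over all members with a window, 30 of 45 (66.7%) held a CHR match, against 20.2% of the 27025 genes with a window and 14.3% of the 9057 tested genes with one. CCAAT was found in 34 of 45 (75.6%), against 41.1% of all genes with a window, and both motifs in 25 (55.6%) against 8.97%. Counted per window, 64.7% of 51 member windows held CHR and 78.4% held CCAAT, against 17.9% and 37.4% of all 32851 windows of this length. Of the 42 CHR matches in member windows, 31 (73.8%) began within 50 bases of the start, with a median position of -7, whereas the 79 CCAAT matches had a median position of -65. A site in windows that overlap counts once in each, and with the first listed window of each gene alone the medians were -1 over 38 CHR and -65 over 69 CCAAT matches. A CHR and a CCAAT match shared a base in 1 case, in Cdca8, and a match is a description of the sequence and not a measured binding site. The plot of motif positions shows this order, with CHR matches around the start and CCAAT boxes upstream.

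**Figure D1:**
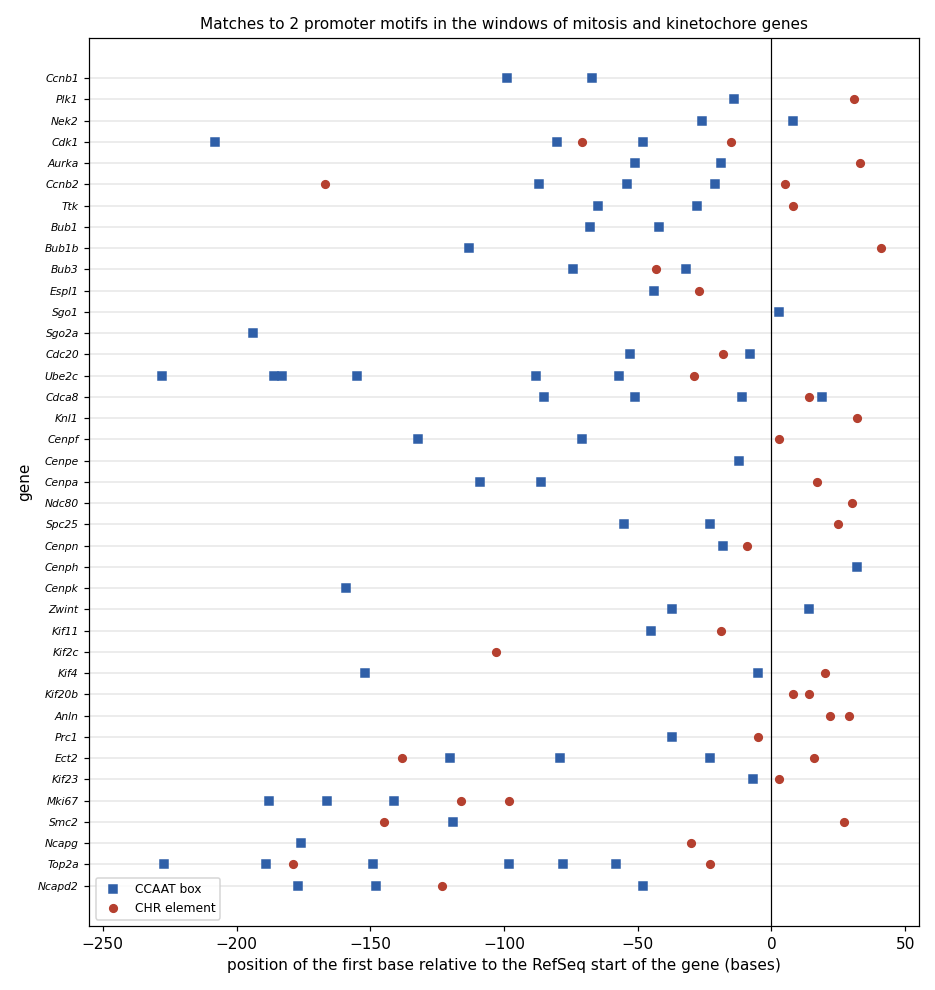
Position of each CHR (circles) and CCAAT (squares) match, in bases from the RefSeq start of the gene, for the members with a match. Where several windows of a gene held a match, only the window with the lowest coordinate is shown. The CHR matches lie mostly around the start and the CCAAT matches mostly upstream. Over all 51 windows, including those not shown, the median positions were -7 and -65.

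Values are normalised counts, RSEM estimates that the authors had scaled to a common depth before deposit. Recovered library sizes were 5557718 to 8106141 reads, with NA MP replicate 1 the shallowest. As a check of the labels, Hoxa10, whose homeodomain is in the fusion, stood at 129 ± 17.7 normalised counts in NA MPs against 8.05 ± 2.57 (SD, n = 4 and 5), and Nup98 at 956 ± 81.8 and 599 ± 29.9. Progenitor markers were high in both groups, with Kit, the receptor used in the gate, at 2964 and 3039 and the summed level of 9 myeloid progenitor markers from 161398 to 177439 in NA MPs and from 157608 to 164171 in WT MPs. Of these 9, 3 were higher and 1 lower by limma, with Prtn3 (0.19) and Ctsg (0.17), both granule proteases, up and Fcgr3 (-0.57), a gene of the CD16/32 antigen, down from 1184 to 795 (log2 changes in parentheses), and 6 were higher without NA MP replicate 1. The Sca1 gene Ly6a stood at 21.4 and 18.2. Of the lineage markers in the stain, Cd3e was listed at 0 in all 9 samples, Cd4, Cd8a, Cd2 and Ly6g were too low to be tested, and Itgam stood at 508 and 418. On principal components of all tested genes the first (65.8% of the variance) parted the groups, and NA MP replicate 1 lay apart on the second (6.12%), where it scored 20.3 and the remaining NA MP samples -8.93 to -3.01.

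Most mitosis and kinetochore genes were modestly lower in NA MPs. Of the 52 members, 40 were lower at an adjusted p under 0.05 from limma, where 17.3% of all tested genes were lower. By the same test 0 were higher (16.9% of all tested genes were), as at an unadjusted p under 0.05 and with limma's voom fit on recovered reads. The remaining 12 did not pass the threshold. Among the 8561 tested genes whose mean value lies within the range of the members (89.2 to 4819), 20.0% were lower. A negative log2 fold change was found for 50 of the 52, against 51.9% of all tested genes. In 33 of the 40 lower genes every NA MP sample lay below every WT MP sample, a separation seen in 12.8% of all tested genes. The median log2 fold change of the members was -0.18, a fall by 11.5%, against -0.0081 over all tested genes. The falls past the threshold ran from 6.66% (Smc4) to 26.0% (Mki67), the next after Mki67 was 21.9% (Knl1), and none of the 52 reached a 2-fold change. Standard errors (SE) of the log2 fold changes ran from 0.028 to 0.12. Added over all 52 genes, the normalised counts were 36519.7 to 39261 in NA MPs and 42934 to 44241 in WT MPs, so the sums did not overlap. In bulk RNA, fewer dividing cells and less of each transcript per cell cannot be told apart.

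Without NA MP replicate 1, 35 members were lower and the median log2 fold change was -0.17. That sample was the lowest of all 9 in 25 of the 52 genes. Its median difference from the WT MP mean over the members was -0.24 on the log2 scale, against -0.16, -0.16 and -0.15 for replicates 2, 3 and 4. The WT MP samples ran from -0.019 to 0.017. All 4 NA MP samples thus lay below the 5 WT MP samples, with 46 to 49 of the 52 genes under the WT MP mean in each. The heat map of members by sample shows the shift spread over the roles, with the strongest blue in the first column.

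**Figure D2:**
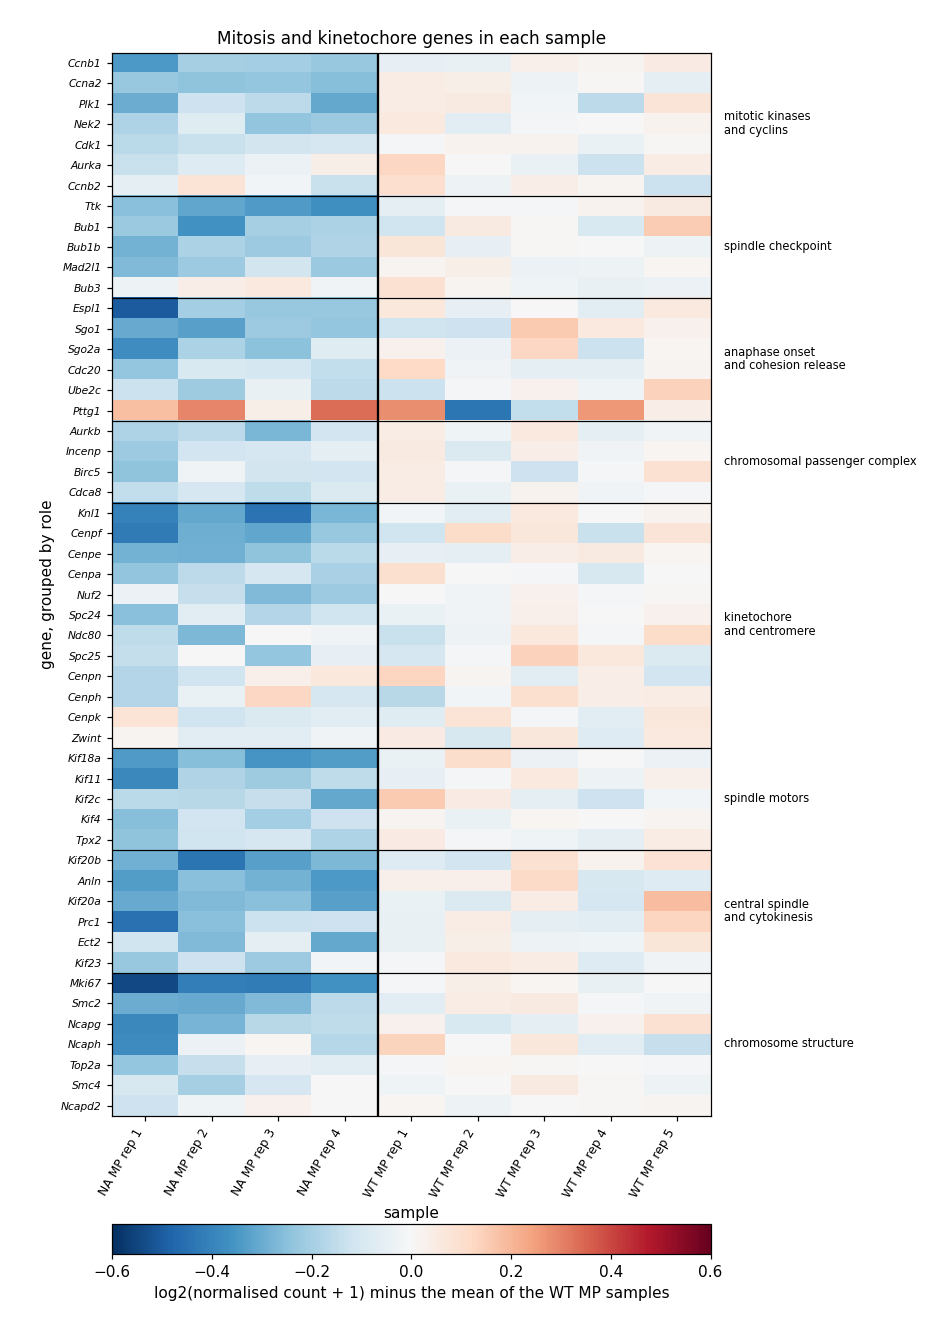
Log2(normalised count + 1) of each of the 52 genes in each sample, minus the mean of the 5 WT MP samples, with genes in rows grouped by role and samples in columns. Blue is below and red above the WT MP mean, and NA MP replicate 1 is the lowest of the 9 samples in 25 of the genes.

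Of the 7 mitotic kinases and cyclins, 5 were lower (median log2 fold change -0.18). Ccnb1 (ENSMUSG00000041431), the B-type cyclin that brings Cdk1 into mitosis, had normalised counts of 545, 604, 600.1 and 592 in NA MP replicates 1 to 4 and 670.1, 672, 706, 699 and 716 in WT MP replicates 1 to 5. The 2 groups did not overlap, at means of 585 ± 27.2 in NA MPs against 693 ± 20.6 (SD, n = 4 and 5), with a log2 change of -0.24 ± 0.044 (SE) and adjusted p = 1.88e-05 by limma. Ccna2 (ENSMUSG00000027715), the cyclin of S phase and early mitosis, stood at 1053, 1041, 1049 and 1029.9 in NA MP replicates 1 to 4 and 1268, 1263, 1207, 1237 and 1183 in WT MP replicates 1 to 5. Its NA MP samples sat within a narrow band below the lowest WT MP sample, at 1043 ± 10.1 in NA MPs against 1232 ± 36.2 (SD, n = 4 and 5), with a log2 change of -0.24 ± 0.035 (SE) and adjusted p = 4.42e-07 by limma. Plk1, the Polo kinase of entry and spindle assembly, fell by 0.22 on the log2 scale (adjusted p = 0.000811 from limma) with overlapping groups, and Nek2, a centrosome kinase, by 0.18. Cdk1 itself had a smaller fall of 8.38%, with a log2 change of -0.13 ± 0.039 (SE) and adjusted p = 0.010 by limma, without overlap. Aurka, the spindle pole Aurora kinase, and Ccnb2, the other B-type cyclin, did not pass, at -0.052 (95% interval -0.17 to 0.061) and -0.030 (interval -0.12 to 0.064). Whether the change of Ccnb1 differs from that of Ccnb2 was not tested.

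Of the 7 genes of chromosome structure, 5 were lower, with a median of -0.14. Mki67 (ENSMUSG00000031004), the proliferation marker Ki-67 that coats mitotic chromosomes, had the largest fall of the 52. Its normalised counts were 3747, 4079.6, 4074 and 4235 in NA MP replicates 1 to 4 and 5424, 5575, 5496, 5289 and 5453 in WT MP replicates 1 to 5. The highest NA MP sample stayed below the lowest WT MP sample, and the means were 4034 ± 206 in NA MPs against 5447 ± 105 (SD, n = 4 and 5), with a log2 change of -0.43 ± 0.028 (SE) and adjusted p = 1.17e-16 by limma (exact two-sided permutation p = 0.00794 over 126 splits, the smallest they allow). Smc2 (ENSMUSG00000028312), the condensin ATPase, stood at 1092, 1091, 1118 and 1206 in NA MP replicates 1 to 4 and 1279.8, 1387, 1397, 1333 and 1325 in WT MP replicates 1 to 5. These groups did not overlap either, at means of 1127 ± 54.2 in NA MPs against 1344 ± 48.0 (SD, n = 4 and 5), with a log2 change of -0.25 ± 0.037 (SE) and adjusted p = 3.13e-07 by limma. Of the other condensin I subunits, Ncapg fell by 0.25 on the log2 scale and Smc4 by 0.099, while Ncaph (-0.14, adjusted p = 0.135 from limma) and Ncapd2 (-0.032, interval -0.091 to 0.027) did not pass. Top2a, the topoisomerase that untangles sister chromatids, fell by 8.10%, with a log2 change of -0.12 ± 0.028 (SE) and adjusted p = 0.000715 by limma. Once GC content and length were corrected for, Top2a (-0.056, adjusted p = 0.118 from limma) and Smc4 no longer passed, and Smc4 also lost the call without NA MP replicate 2 or WT MP replicate 3.

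The kinetochore and centromere genes were divided, with 6 of 12 lower and a median of -0.13. Knl1 (ENSMUSG00000027326), the outer kinetochore scaffold to which the checkpoint proteins Bub1 and Bub3 bind, had normalised counts of 517, 554, 503 and 565 in NA MP replicates 1 to 4 and 677, 656, 713, 683 and 695 in WT MP replicates 1 to 5. The ranges did not meet, and the means were 535 ± 29.5 in NA MPs against 685 ± 21.2 (SD, n = 4 and 5), with a log2 change of -0.36 ± 0.045 (SE) and adjusted p = 1.80e-08 by limma. Cenpf (ENSMUSG00000026605), a large protein of the outer kinetochore, stood at 427, 468, 462 and 490.1 in NA MP replicates 1 to 4 and 529, 620.3, 601, 522 and 605 in WT MP replicates 1 to 5. Again the groups were apart, by a small margin, at 462 ± 26.0 in NA MPs against 576 ± 46.2 (SD, n = 4 and 5), with a log2 change of -0.31 ± 0.053 (SE) and adjusted p = 7.25e-06 by limma. Cenpe, a kinetochore motor, and Cenpa, the histone that marks the centromere, fell by 0.24 and 0.17 on the log2 scale. Within the microtubule-gripping Ndc80 complex, Nuf2 (-0.16) and Spc24 (-0.15) were lower, whereas Ndc80 (-0.11, adjusted p = 0.202 from limma) and Spc25 (-0.11, adjusted p = 0.272 from limma) did not pass. Nuf2 lost its call once GC content and length were corrected for, and without NA MP replicate 3, and Spc24 lost it when NA MP replicate 1 or 3 or WT MP replicate 3, 4 or 5 was left out. The inner kinetochore proteins Cenph (-0.049), Cenpk (-0.048) and Cenpn (-0.051) and the adaptor Zwint (-0.035) did not pass. The interval for Cenpk, the widest of these 4, was -0.23 to 0.13, which still holds the median of the members. Over all 52, genes that passed had a median mean value of 601 and those that did not 304 normalised counts.

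All 4 genes of the chromosomal passenger complex, which corrects faulty attachments, were lower, with a median of -0.12. Aurkb (ENSMUSG00000020897), its kinase, had normalised counts of 832, 847, 783 and 874 in NA MP replicates 1 to 4 and 977, 930.0, 985, 908 and 932 in WT MP replicates 1 to 5. The groups did not overlap, at 834 ± 38.2 in NA MPs against 946 ± 33.2 (SD, n = 4 and 5), with a log2 change of -0.18 ± 0.040 (SE) and adjusted p = 0.000297 by limma. Incenp (ENSMUSG00000024660), its scaffold, stood at 1172, 1261, 1272 and 1311 in NA MP replicates 1 to 4 and 1416, 1285, 1404, 1347 and 1375 in WT MP replicates 1 to 5. Here the highest NA MP sample lay above the lowest WT MP sample, and the means were 1254 ± 58.8 in NA MPs against 1365 ± 52.2 (SD, n = 4 and 5), with a log2 change of -0.12 ± 0.036 (SE) and adjusted p = 0.00696 by limma. Incenp did not pass without NA MP replicate 1 (adjusted p = 0.0544 from limma), when 2 of the 4 genes were lower. Cdca8 (borealin) fell by 8.04% without overlap. Birc5 (survivin) fell by 8.08% with overlapping groups and an adjusted p of 0.0474 from limma (exact two-sided permutation p = 0.0556 over 126 splits). It lost the call in 5 of 10 other settings and without 7 of the 9 samples.

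In the spindle checkpoint 4 of 5 genes were lower, with a median of -0.22. Ttk (ENSMUSG00000038379), the Mps1 kinase that starts checkpoint signalling, had normalised counts of 234, 224, 220.5 and 216 in NA MP replicates 1 to 4 and 269, 276, 277, 283 and 289.8 in WT MP replicates 1 to 5. The groups were well apart, at means of 224 ± 7.80 in NA MPs against 279 ± 7.91 (SD, n = 4 and 5), with a log2 change of -0.32 ± 0.062 (SE) and adjusted p = 6.77e-05 by limma. Bub1 (ENSMUSG00000027379), the kinase recruited to Knl1, stood at 450.2, 407, 456 and 459.6 in NA MP replicates 1 to 4 and 482, 545, 527, 493 and 583 in WT MP replicates 1 to 5. Its groups were separated by a narrower gap, at 443 ± 24.3 in NA MPs against 526 ± 40.7 (SD, n = 4 and 5), with a log2 change of -0.24 ± 0.053 (SE) and adjusted p = 0.000303 by limma. Bub1b (BubR1) and Mad2l1 (Mad2), both parts of the inhibitor of the anaphase-promoting complex, fell by 0.22 and 0.20 on the log2 scale without overlap. Bub3, the partner of Bub1 and Bub1b, stood at a log2 fold change of 0.013 (interval -0.063 to 0.089), which turned to -0.0021 when samples were scaled by library size only.

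The 5 spindle motors and their regulators were all lower and all without overlap, with a median of -0.19. Kif18a (ENSMUSG00000027115), the kinesin that damps chromosome movement at the spindle equator, had normalised counts of 126, 133, 125 and 126 in NA MP replicates 1 to 4 and 155, 172, 156, 160.1 and 156 in WT MP replicates 1 to 5. The NA MP samples were tightly grouped under the WT MP samples, at 128 ± 3.93 in NA MPs against 159.8 ± 7.08 (SD, n = 4 and 5), with a log2 change of -0.32 ± 0.080 (SE) and adjusted p = 0.00139 by limma. Kif11 (ENSMUSG00000012443), the kinesin Eg5 that pushes the spindle poles apart, stood at 1029, 1187, 1161 and 1213 in NA MP replicates 1 to 4 and 1299, 1339, 1401, 1317 and 1374 in WT MP replicates 1 to 5. NA MP replicate 1 was the lowest and the groups stayed apart, at means of 1147 ± 81.8 in NA MPs against 1346 ± 41.6 (SD, n = 4 and 5), with a log2 change of -0.23 ± 0.039 (SE) and adjusted p = 7.41e-06 by limma. Kif2c (MCAK), the chromokinesin Kif4 and the spindle assembly factor Tpx2 fell by 0.19, 0.17 and 0.16 on the log2 scale.

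For anaphase onset and the release of cohesion, 5 of 6 genes were lower, with a median of -0.18. Espl1 (ENSMUSG00000058290), the separase that cuts cohesin, had normalised counts of 571, 701, 691 and 690.2 in NA MP replicates 1 to 4 and 844, 781, 808, 770.5 and 841 in WT MP replicates 1 to 5. NA MP replicate 1 lay far below the other NA MP samples, which themselves lay below all WT MP samples, and the means were 663 ± 61.5 in NA MPs against 809 ± 33.6 (SD, n = 4 and 5), with a log2 change of -0.29 ± 0.050 (SE) and adjusted p = 2.01e-05 by limma. Sgo1 (ENSMUSG00000023940), the shugoshin that guards centromeric cohesin, stood at 208, 204, 220.5 and 218 in NA MP replicates 1 to 4 and 236, 235, 286, 267 and 261 in WT MP replicates 1 to 5. The groups did not overlap, at 213 ± 7.91 in NA MPs against 257 ± 21.6 (SD, n = 4 and 5), with a log2 change of -0.27 ± 0.068 (SE) and adjusted p = 0.00166 by limma. Sgo2a, the other shugoshin, fell by 0.22 on the log2 scale with overlapping groups, and Cdc20, the activator of the anaphase-promoting complex, by 0.14 without overlap. Ube2c, the ubiquitin-conjugating enzyme of that complex, fell by 8.93% with an adjusted p of 0.0456 from limma, and it lost the call in 4 of 10 other settings and without 7 of the 9 samples. Pttg1 (securin), the inhibitor of Espl1, was the member with the highest log2 fold change, 0.21 (interval -0.026 to 0.45, adjusted p = 0.185 from limma). Its means were 95.9 ± 8.71 (SD, n = 4) and 83.9 ± 16.8 (SD, n = 5) normalised counts, and its WT MP samples were widely spread, so that the groups overlapped.

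All 6 genes of the central spindle and cytokinesis were lower, with a median of -0.26. Kif20b (ENSMUSG00000024795), a kinesin of late cytokinesis, had normalised counts of 478, 429.7, 465 and 484 in NA MP replicates 1 to 4 and 553, 538, 620.5, 591 and 619 in WT MP replicates 1 to 5. The groups did not overlap, at 464 ± 24.4 in NA MPs against 584 ± 37.7 (SD, n = 4 and 5), with a log2 change of -0.33 ± 0.050 (SE) and adjusted p = 1.03e-06 by limma. Anln (ENSMUSG00000036777), anillin, the scaffold of the contractile ring, stood at 462, 489, 479 and 459.6 in NA MP replicates 1 to 4 and 595, 595, 631, 545 and 553 in WT MP replicates 1 to 5. The NA MP samples lay close together below the WT MP samples, at means of 472 ± 14.1 in NA MPs against 584 ± 35.0 (SD, n = 4 and 5), with a log2 change of -0.30 ± 0.048 (SE) and adjusted p = 2.43e-06 by limma. Kif20a, which carries the passenger complex to the midzone, Prc1, which bundles midzone microtubules, and Ect2, which activates RhoA at the furrow, fell by 0.29, 0.24 and 0.19 on the log2 scale without overlap. Kif23, the centralspindlin motor, fell by 0.15 with overlapping groups and no longer passed once GC content and length were corrected for, nor without NA MP replicate 1 or 3 or WT MP replicate 2. The plots of single genes by sample and of fold changes by role show the same data for the 16 genes with all values given and for all 52.

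**Figure D3:**
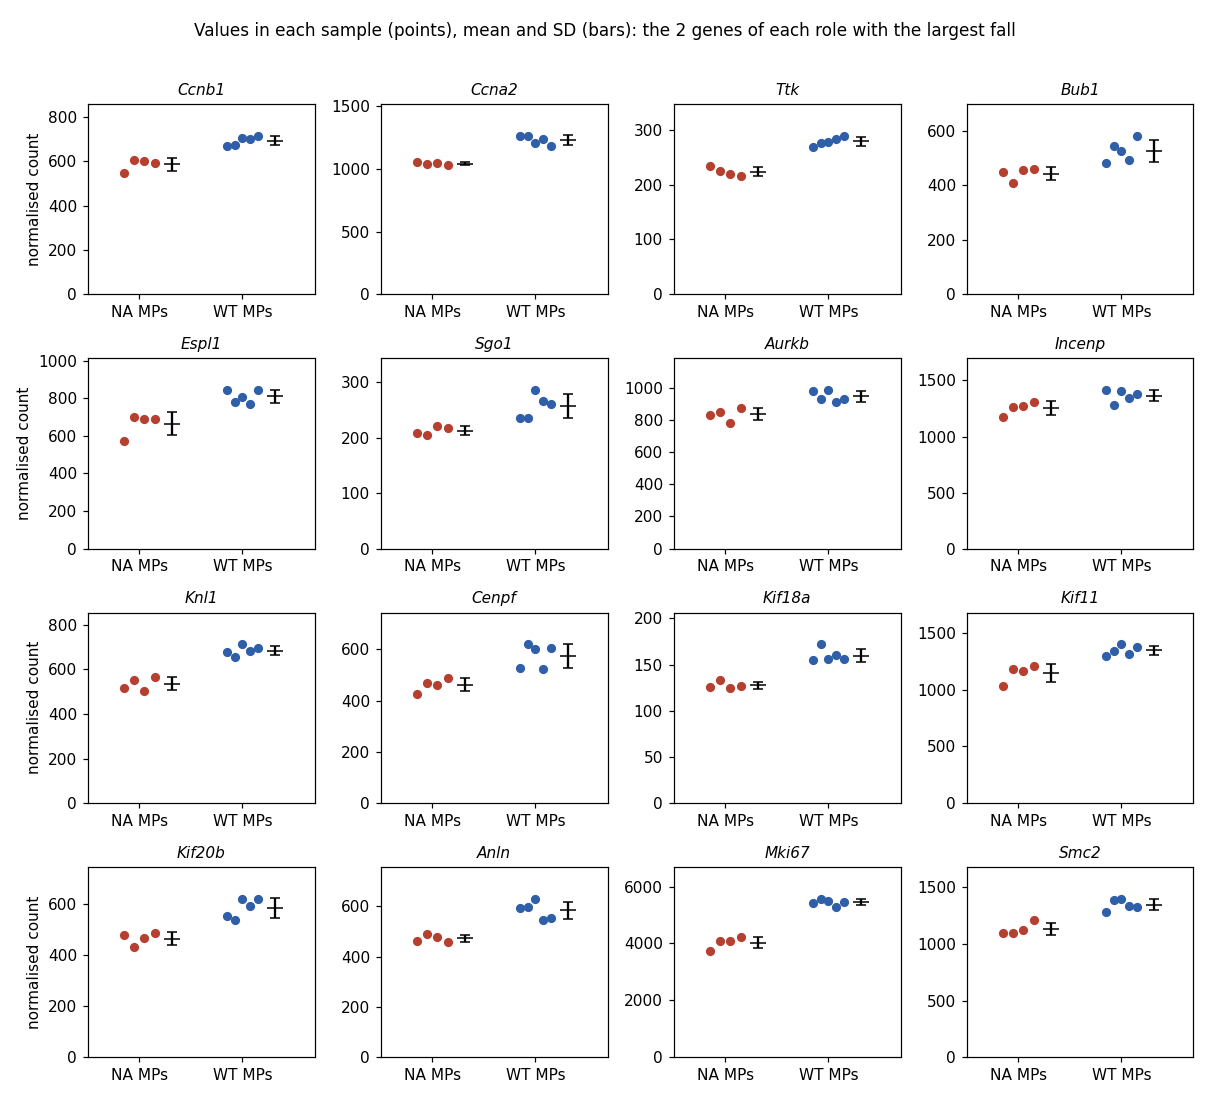
Normalised count in each NA MP (red, n = 4) and WT MP (blue, n = 5) sample for the 2 genes of each role with the largest fall, with the mean and SD as bars, on axes from 0. In 15 of the 16 genes every NA MP sample lies below every WT MP sample, and in Incenp the groups overlap.

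**Figure D4:**
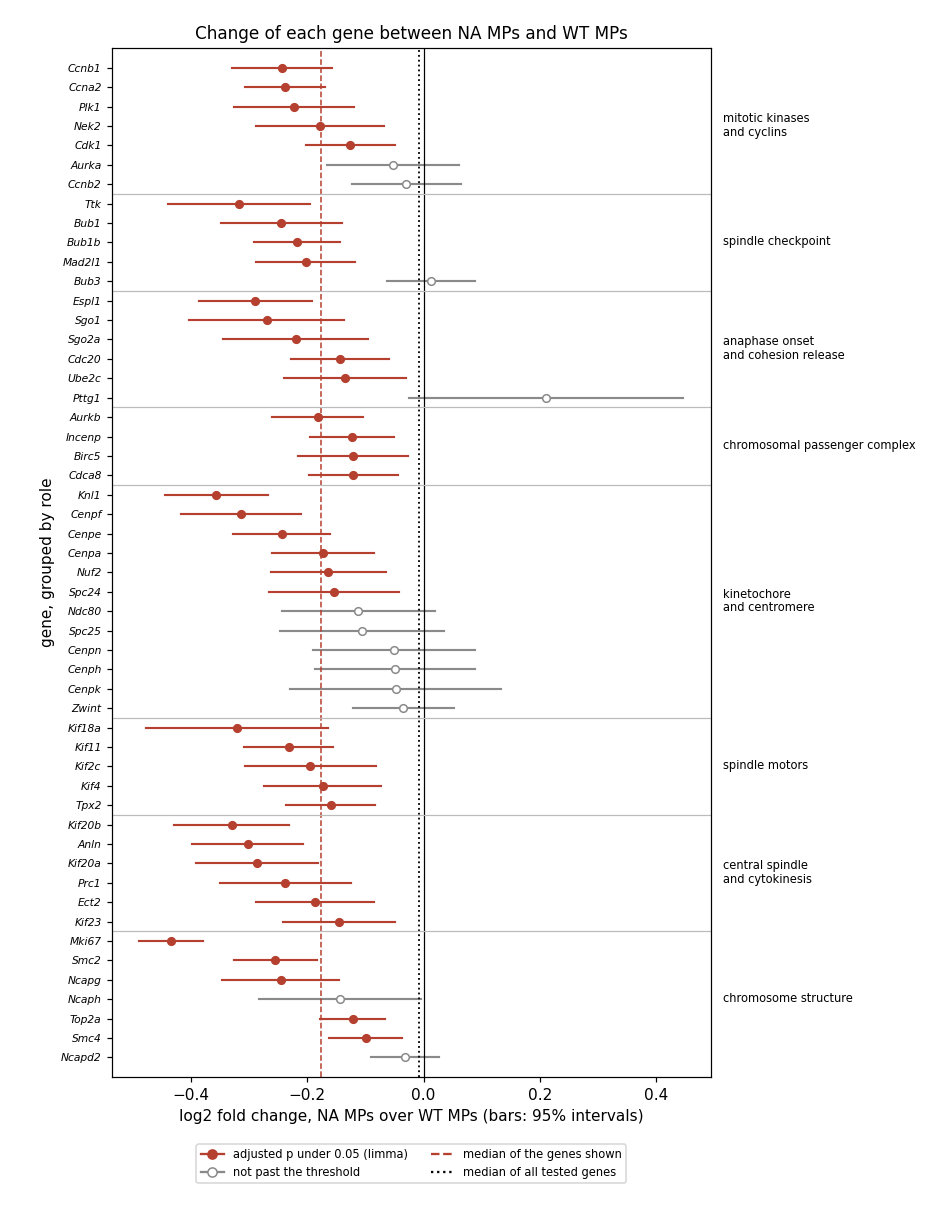
Log2 fold change of NA MPs over WT MPs for each of the 52 genes, with bars for 95% intervals, filled where the adjusted p from limma is under 0.05. The dashed line marks the median of the 52 genes (-0.18) and the dotted line that of all tested genes (-0.0081).

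Per kilobase of exon, the level in WT MPs was highest for Mki67 (541 normalised counts per kilobase), Top2a (496), Smc4 (474) and Ccnb2 (418) and lowest for Kif18a (16.3), Cenpk (21.0) and Cenpf (37.3). In NA MPs, Top2a (456), Smc4 (443) and Ccnb2 (409) stood above Mki67 (401). Across the 52 genes, which share the same 9 libraries, the log2 fold change went down with exonic length, with a Pearson r of -0.54 and a Spearman rho of -0.47, against -0.086 and -0.15 over 11644 tested genes with an annotation. The 26 longer members (5177 to 15433 bases of exon) had a median log2 fold change of -0.21 with 22 lower, and the 26 shorter (1531 to 4934 bases) a median of -0.15 with 18 lower. With GC content r was 0.28 among the members and 0.12 among all. After a correction of each sample for GC content and length, r with length among the members was -0.21, 37 members were lower and their median was -0.18, beside 2586 lower and 1628 higher genes over all (2077 lower and 2030 higher without it). In GENCODE M21 (GRCm38), 15 members share exon sequence with another gene, and their values are uncertain. For 13 of them the other gene lies on the opposite strand, and the strand setting of the counting is not stated. These are Ccna2 (Exosc9), Plk1, Nek2, Cdc20 (Elovl1), Ube2c (Tnnc2), Sgo2a (Kctd18), Cdca8, Cenpk (Ppwd1), Kif18a (Mettl15), Kif4 (Pdzd11), Kif20a (Cdc23), Prc1 (Rccd1), and Ncapg (Lcorl). For the other 2, Ncapd2 and Top2a, the shared sequence lies on the same strand.

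Members with and without a CHR match had like median changes. The 30 members with a CHR match had a median log2 fold change of -0.18 with 23 lower, and the 15 with a window and no match a median of -0.18 with 10 lower. For CCAAT the medians were -0.18 (34 with, 25 lower) and -0.19 (11 without, 8 lower). Over all tested genes with a window, CHR was found in 16.2% of the 1603 genes lower in NA MPs, in 14.6% of the 1510 higher genes and in 14.3% of all.

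Other genes of mitosis were read from lists that hold none of the 52. Of 104 such genes in 5 lists, all tested, 36 were lower and 4 higher, and their median log2 fold change was -0.10. Over all tested genes 17.3% were lower and 16.9% higher, with a median of -0.0081. Among 28 other spindle, centrosome and cytokinesis genes, 15 (53.6%) were lower and 1 higher. Aspm, a spindle pole protein that governs spindle orientation, fell from 452 ± 31.7 (SD, n = 5) to 303 ± 11.8 normalised counts (SD, n = 4), with a log2 change of -0.57 ± 0.056 (SE) and adjusted p = 3.19e-11 by limma, a larger fall than that of any member. The kinesins Kif14 (-0.40) and Kif15 (-0.28) and the microtubule-binding Hmmr (-0.36) were also lower, and none of these 4 overlapped between groups. Of 30 other kinetochore and centromere genes, 6 (20.0%, near the share of all tested genes) were lower and 1 higher, with a median of -0.091. The lower ones included Oip5 (-0.45), a loading factor of Cenpa, Kntc1 (-0.27) of the RZZ complex, Ska3 (-0.24) and Knstrn (-0.23). Of 14 cohesin and condensin II genes 7 were lower and all 14 had a negative log2 fold change, among them Esco2 (-0.26), Ncapg2 (-0.25), Wapl (-0.23) and Pds5a (-0.14). Of 15 other mitotic entry genes 4 (26.7%) were lower, including the inhibitory kinase Wee1 (-0.21), Ccnf (-0.23) and Cks2 (-0.12), and 1 was higher, Pkmyt1 (0.15), the other inhibitory kinase of Cdk1. Of the 17 genes of the anaphase-promoting complex 4 (23.5%) were lower and 1 (5.88%) higher, shares not far above and below those of all tested genes. Their median was -0.043, with Anapc1 (-0.22), Cdc23 (-0.20), the inhibitor Fbxo5 (-0.16) and Anapc5 (0.18) past the threshold. Single samples moved some of these counts. Without WT MP replicate 5 only 3 of the 30 kinetochore and centromere genes were lower, without WT MP replicate 3 only 2 of the 15 entry genes, and without NA MP replicate 3 only 2 of the 17 genes of the anaphase-promoting complex. The count of higher genes became 2 without NA MP replicate 1 (kinetochore and entry genes), NA MP replicate 3 (entry genes) or WT MP replicate 1 (anaphase-promoting complex). It became 0 for the entry genes without replicate 2 of either group, when Pkmyt1 did not pass. Cks2 lost the call without any of 6 samples (NA MP replicates 2 and 3, WT MP replicates 2 to 5), Fbxo5 without NA MP replicate 3 or 4 or WT MP replicate 1 or 5, and Ska3 without replicate 2 of either group or WT MP replicate 5. With library size scaling 7 entry genes were lower, and after the correction for GC content and length 1 of the 104 genes was higher, and Pkmyt1 and Pds5a did not pass.

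Among 22 regulators of G2/M transcription, 5 (22.7%) were lower and 1 (4.55%) higher, with a median of -0.051, where 17.3% of all tested genes were lower and 16.9% higher. Foxm1, the factor that drives late cell cycle genes, did not pass, with a log2 change of -0.051 ± 0.056 (SE) and adjusted p = 0.525 by limma, while Mybl2 fell by 0.12 on the log2 scale (adjusted p = 0.0137 from limma). E2f4 (-0.28), the E2F of the DREAM complex, and E2f3 (-0.20) were lower and E2f2 (0.43) was higher. In this list 1 gene was lower without WT MP replicate 2, 2 were lower and 2 higher without NA MP replicate 1, and 3 were lower without NA MP replicate 3 or 4 or WT MP replicate 3 or 5. Mybl2 did not pass without NA MP replicate 1 or WT MP replicate 2, nor E2f3 without NA MP replicate 4 or WT MP replicate 2. Of 27 DNA replication genes, 11 (40.7%) were lower and 1 higher, with a median of -0.088, led by Ccne1 (-0.53), the G1/S cyclin, Rrm1 (-0.33), the large subunit of ribonucleotide reductase, Fen1 (-0.28) and Cdc6 (-0.23), and 17 were lower after the correction for GC content and length. Of the 9 tested CDK inhibitors and G1 cyclins, 1 was lower and 4 were higher, with a median of 0.10. Cdkn1a (the p21 protein), which restrains CDKs after stress, rose from 50.6 ± 8.35 (SD, n = 5) to 104 ± 26.0 normalised counts (SD, n = 4) without overlap, with a log2 change of 1.01 ± 0.14 (SE) and adjusted p = 6.72e-07 by limma. Cdkn2c (p18, 0.52), Cdkn1b (p27, 0.27) and Ccnd1 (0.33) rose, Ccnd2 fell (-0.19), and Ccnd3 (0.092) and Cdk6 (-0.093) did not pass. Without NA MP replicate 4 or WT MP replicate 1, 2 of the 9 were lower. The count of higher genes was 6 without NA MP replicate 1 and 5 without WT MP replicate 1 or 4. The bar chart of shares by list sets these groups beside all tested genes.

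**Figure D5:**
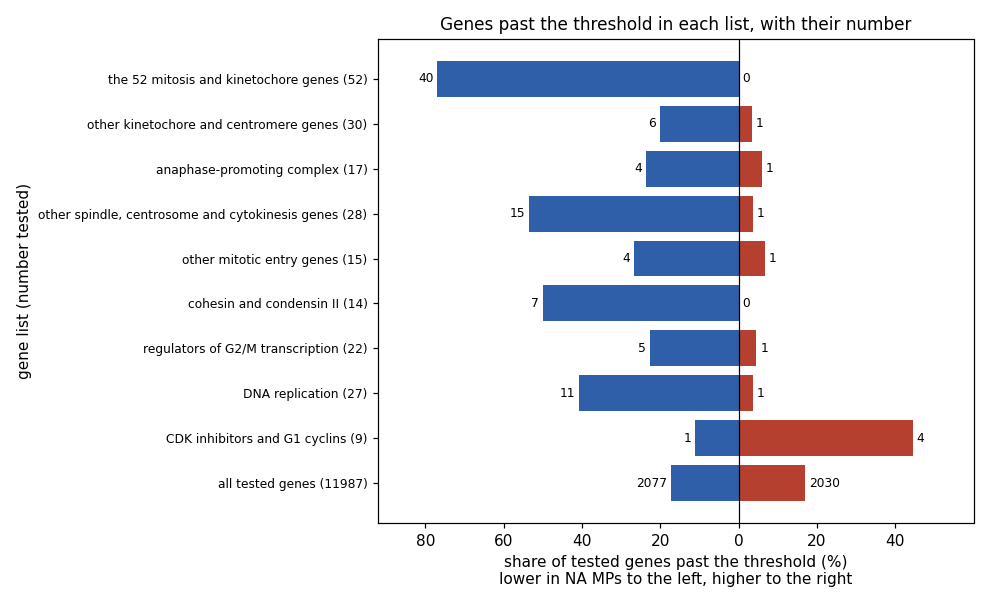
Share of the tested genes of each list that passed the threshold of limma, lower in NA MPs to the left (blue) and higher to the right (red), in percent, with the number of genes at each bar. Of the 52 mitosis and kinetochore genes 40 were lower, and of all 11987 tested genes 2077 were lower and 2030 higher.

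Markers of other cells differed between the same groups, where 17.3% of all tested genes were lower and 16.9% higher. The lineage stain of the sort removes cells with surface antigens of mature erythroid, B, T and myeloid cells, and the lists below hold genes that less mature cells of these lineages also express. Of 15 tested erythroid genes 13 were lower (median log2 fold change -0.94), and the sum of the 18 listed genes was 6495 to 8289 normalised counts in NA MPs and 12397 to 13753 in WT MPs. Sptb (-1.43), Rhag (-1.39) and Ermap (-1.38) fell most. All 12 pro-B and pre-B cell genes were higher, among them Rag1 (3.66) and Ebf1 (3.52), with sums of 1493 to 2669 against 388 to 424. With at least 10 required in every sample 7 of them were tested and 7 were higher. Immediate early genes are not markers of a lineage. All 13 tested were higher too, with sums of 13583 to 29845 against 2958 to 6273 and Fosb (4.21), Dusp1 (2.91) and Fos (2.90) in the lead. In the mast cell and basophil list 5 of 7 tested genes were higher and 1 lower (sums 3508 to 3970 against 2607 to 2872). The megakaryocyte list had 4 of 9 lower and 1 higher (1609 to 1849.7 against 1707 to 1875). Neutrophil genes were 3 of 8 higher and 2 lower (3641 to 5587 against 3196 to 3705), counts that changed with any 1 sample left out. They became 4 higher and 1 lower without NA MP replicate 1, and 1 higher and 1 lower without NA MP replicate 4. Without any other sample they became 2 higher and 2 lower. Among monocyte and macrophage genes 4 of 8 were higher and 1 lower (8601 to 10427 against 8548 to 8961). Of the T cell genes Cd3e, Cd3g and Trac were listed at 0 in all samples, and Lck, the single one tested, was higher (2.16), at 40.8 to 58.7 in NA MPs and 6.84 to 13.01 in WT MPs. The part of these cells in the fall of the mitosis and kinetochore genes was not tested.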

How the data were processed

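RNA from 4 NA MP and 5 WT MP samples had been sequenced as TruSeq libraries, and the submitters' processing notes name bcl2fastq, RSEM, DESeq2 and mm10, without versions. The annotation and the strand setting of the counting are not given in the sources used here. The table holds a signal for each of 37980 Ensembl genes and each sample. Although it was deposited as raw counts, the deposited signal was not unscaled, since the authors had divided the RSEM estimates of each sample by 1 factor. Totals were nearly equal (6602851 to 6734284). Of the values above 0, 96.6% to 97.0% were whole multiples (within 0.01) of a step of 0.827 to 1.20 per read, which matched median-of-ratios size factors within 0.262%. A count test was therefore replaced by limma 3.58.1 (R 4.3.3), although a count model had been planned. It was run on log2(value + 1) with a trend and robust moderation, on genes with at least 10 in 4 samples, with Benjamini-Hochberg adjustment over all 11987 tested genes and a threshold of 0.05. Fold changes on this scale are slightly understated for low genes. Dividing by the step gave libraries of 5557718 to 8106141 reads, and floors (3 reads, a value of 2.48 to 3.60) cover counting error only. The number of columns that belong to no sample of the series was 0.

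The members and gene lists were chosen with earlier results of these data known. All 52 members could be named. Values in every sample are given for the 2 members of each role with the largest absolute log2 fold change among those past the threshold. Of each pathway list up to 4 such genes were named, besides Foxm1, Mybl2, Cdkn1a, Ccnd1, Ccnd2, Ccnd3 and Cdk6, and of each cell type list up to 3. Gene symbols matched 32916 identifiers. Length, GC content and overlaps came from GENCODE M21 (GRCm38), the build that mm10 names. Levels per kilobase are the value divided by the exonic length of the gene. Motifs were searched in RefSeq promoter windows (GRCm38.p6) on both strands. Same-numbered samples came from different mice, so the replicate number was a block only in an alternative. The fit was tested on simulated data with 200 changed genes of 11987. It recovered 72% of the genes changed 1.25-fold and 100% of those changed 4-fold, and 6.42% of its calls were false. No smaller change was simulated, so the test does not cover falls such as the members' median of 11.5%. No sample was an identical copy of another of its group, since chi-square values per degree of freedom between samples of a group were 1.20 to 2.84. Libraries made from the same cells would also differ by counting error, so these values cannot show whether samples share mice. Intervals of 95% on fold changes are normal approximations from limma's standard error and cover the spread between samples.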

Additional observations from a re-analysis of the deposited data

Results flagged for a closer look

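Of 106 groups of 4 or 5 samples (each member, and the median difference over the members, in each genotype), 5 had a sample far from the others of its group, where chance gives about 5.3. Among NA MPs, replicate 1 lay far below the others for Espl1 (571 normalised counts against 690.2 to 701) and in the median difference of the 52 members from the WT MP mean (-0.24 against -0.16 to -0.15 on the log2 scale). Replicate 4 lay below the others for Kif2c (319 against 352 to 359). Among WT MPs, replicate 2 lay above the others for Kif18a (172 against 155 to 160.1) and below them for Kif4 (412 against 424 to 429). No explanation was tested for these values.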

How the results depend on the processing

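Under 19 alternatives the members stayed lower as a group, with 35 to 40 of the 52 lower, 0 higher and a median log2 fold change from -0.19 to -0.17. Leaving out each sample in turn gave 35 (without NA MP replicate 1) to 39 lower members, medians from -0.19 to -0.17, and from 3625 to 3937 changed genes over all. A threshold of 0.01 left 32 lower members and 1376 lower genes over all, of 2857. Once GC content and length were corrected for, 37 members were lower, and over all genes 2586 were lower and 1628 higher. Of the 40 lower members 32 passed at 0.05 in every setting. In the main fit 29 of these also passed at 0.01, but not Cdk1, Nek2 and Cdca8. The other 8 lower members (Birc5, Incenp, Kif23, Nuf2, Smc4, Spc24, Top2a, Ube2c) lost the call in at least 1 setting. Of the 12 others, Ncaph and Ncapd2 gained it in at least 1. Signs turned for Bub3 (-0.0021 with library size only, and -0.0030 to 0.036 with each sample left out), Ccnb2 (-0.067 to 0.0046 with each sample left out) and Foxm1 (-0.087 to 0.011 with each sample left out), none of which passed the threshold, and the cause was not tested. The replicate numbers did not pair the samples, with correlations between same-numbered samples from -0.020 to 0.057 and only number 4 correlating best with its own number. With the replicate block, on 8 samples, 38 members and 3664 genes over all passed, against 37 and 3689 for those samples without the block. Between these fits on the same 8 samples only the call of Ncaph differed, which it gained with the block. Birc5, Spc24 and Ube2c lost the call with and without the block. Scaling by library size only gave 40 lower members, no filter 37, at least 10 in every sample 40 and the fit without robust moderation 38. Chosen after seeing the data were pseudocounts of 0.5 (40) and 5 (40), quantile normalisation (38) and voom on recovered reads (39). RLE size factors, DESeq2 and unrounded counts were not run. The deposited values were already scaled, although a count model could have been run on the recovered reads. Recovered depth limits low members most, among them Pttg1 and Cenpk, with standard errors of 0.12 and 0.092.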
